A study of Mus musculus with 8 samples.

Results

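Mecom and its paralog Prdm16 were followed through the open chromatin of leukemic granulocyte-macrophage progenitors (L-GMPs), the cells in which leukemia stem cell activity resides in mice with MLL-AF9 leukemia. The peaks considered had their summit inside either gene or within 20 kb of it, and peaks of different libraries that shared at least 1 bp were merged into 1 region. This gave 45 regions at Mecom and 11 at Prdm16, together 56 of the 138385 regions found in the 8 libraries. Regions are numbered here along the chromosome, from the lowest coordinate up. Mecom was chosen by the number of peaks there that the control library FL 3 holds and no other library does, so the counts of regions per library at Mecom are given as a description, with no test.

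ATAC-seq records open chromatin by letting a transposase insert sequencing adapters where DNA is accessible. Both 4S-A libraries came from mice whose DEK protein carries alanine in place of serine at residues 306, 308, 311 and 312. KO 3 was Dek fl/fl;Tie2-Cre, and its control FL 3 was Dek+/+, and with both 4S-A libraries these are called the Tie2-Cre set. KO 1 and KO 2 were Dek fl/fl,MX1-Cre, and their controls FL 1 and FL 2 were Dek fl/fl without Cre (the Mx1-Cre set). All 8 libraries, controls included, came from MLL-AF9 leukemic bone marrow sorted for cells without lineage markers or Sca-1 and with CD34, c-Kit and CD16/32, with about 5000 cells in each reaction and 13 to 16 PCR cycles. Tie2-Cre is active in endothelium and blood cells and Mx1-Cre is induced by interferon in many cell types, so neither is limited to the sorted cells. FL 3 and KO 3 are each the only library of their genotype, and the labels do not say whether libraries of 1 group came from separate animals.

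Mecom encodes a zinc finger transcription factor in 2 main forms. The long form starts at the Mds1 site and carries a PR domain, while the short form, EVI1, starts at an internal site and lacks that domain. Prdm16 encodes a closely related protein with the same order of PR domain and zinc fingers. Both genes are known to be needed for the upkeep of blood stem cells, and both are frequent sites of retroviral insertion in mouse leukemia. In human acute myeloid leukemia, high EVI1 marks cases with poor outcome, among them part of those with MLL rearrangements. Mecom, Prdm16 and the starts treated here all read along the minus strand, so the long start has a higher coordinate than the short one.

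The lists held 104605 and 94725 peaks in 4S-A 1 and 4S-A 2, and 56245, 74026 and 93041 in KO 1, KO 2 and KO 3. They held 51510, 54887 and 91586 peaks in FL 1, FL 2 and FL 3. Read depth is unknown, and list length is the depth that the lists show. The share of all regions that a library holds was 73.4% and 65.9% in 4S-A 1 and 4S-A 2, 38.3%, 49.9% and 65.4% in KO 1 through KO 3, and 34.5%, 37.0% and 64.7% in FL 1 to FL 3. The 6 GMP marker genes that could be placed (Kit, Cd34, Fcgr3, Fcgr2b, Mpo and Elane) had a region within 1 kb of their start in all 8 libraries. Of the markers of other cells, none of 4 T and NK genes had one in any library, 1 of 3 B-cell genes had one in all 8 (Ebf1) and the others in none (Cd79a and Pax5), and 2 of 3 erythroid genes had one in all 8 (Klf1 and Epor) and Hbb-bt in none. Of 3 megakaryocyte genes Pf4 was open in all 8 libraries, with 3 and 1 open in 4S-A 1 and 4S-A 2, 2, 3 and 3 in the KO libraries, and 2, 3 and 3 in the FL libraries. Of 4 stem cell genes besides Mecom, Hlf and Meis1 were open in all 8, with 2 to 4 open per library, and of 2 stromal genes Pdgfra was open in none and the other in 7 libraries. Endothelial starts were open for 2 of 2 genes in both 4S-A libraries, for 1 in each KO library, for none in FL 1 and FL 2 and for 1 in FL 3. At Dek itself 1 region was held by all 8 libraries, with a percentile between 65.7 and 89.2, so peaks at the gene do not check the genotypes.

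The start windows below are shown because they are the places against which the regions are mapped, and because they show how alike the paralogs are at their starts. Each window holds 300 bases from RefSeq (GRCm38.p6, also called mm10), 250 before the start and 50 from the start on, and all are written along the minus strand, 5′ to 3′. In the Mds1 and Prdm16 windows, capitals mark the longest run of bases that both share. In the Evi1 window, capitals mark the matches of an NF-Y, a MEIS and an ETS motif, in that order along the window.
Mecom long start (Mds1), chr3:30509710-30510009: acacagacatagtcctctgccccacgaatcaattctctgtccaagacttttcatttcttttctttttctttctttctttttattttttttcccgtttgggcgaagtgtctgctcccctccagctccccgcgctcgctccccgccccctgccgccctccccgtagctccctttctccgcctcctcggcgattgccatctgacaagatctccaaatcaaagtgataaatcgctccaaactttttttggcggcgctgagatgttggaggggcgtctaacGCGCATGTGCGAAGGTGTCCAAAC
Mecom short start (Evi1), chr3:30013155-30013454: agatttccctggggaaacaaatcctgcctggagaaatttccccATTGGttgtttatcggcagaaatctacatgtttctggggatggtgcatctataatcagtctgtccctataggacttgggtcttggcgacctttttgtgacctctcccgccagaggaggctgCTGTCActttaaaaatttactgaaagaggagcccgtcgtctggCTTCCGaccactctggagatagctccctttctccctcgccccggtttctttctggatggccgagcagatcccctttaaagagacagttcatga
Prdm16 start, chr4:154636824-154637123: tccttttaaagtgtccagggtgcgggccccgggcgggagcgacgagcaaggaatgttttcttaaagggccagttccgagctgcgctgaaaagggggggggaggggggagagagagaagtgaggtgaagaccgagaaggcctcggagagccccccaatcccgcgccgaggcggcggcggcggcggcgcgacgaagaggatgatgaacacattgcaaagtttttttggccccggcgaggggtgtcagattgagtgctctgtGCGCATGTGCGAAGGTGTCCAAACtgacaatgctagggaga

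The Mds1 and Prdm16 windows shared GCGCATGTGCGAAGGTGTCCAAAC, a run of 24 bases. It spans bases 27 to 50 from the Mds1 start and bases 10 to 33 from the Prdm16 start, counting the start as base 1. Base 50 is the last of the Mds1 window, so whether the run goes on beyond the window was not examined. Among the 32851 start windows of the RefSeq table, these are the 2 that hold it on either strand. The short start shared with the Prdm16 window no run longer than 7 bases. With the Mds1 window it shared TAGCTCCCTTTCTCC, 15 bases that lie at -89 to -75 from the Mds1 start and at -24 to -10 from the Evi1 start, again in 2 windows of the table.

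Motifs were searched on both strands. For blood and leukemia factors these were GATAAG for the GATA family, CGGAAG and also AGGAAG for the ETS family, TGTGGT for RUNX, TGACAG for MEIS, and TGATTTAT and also TGATTGAT for HOX-PBX pairs. For other factors they were TTGCNNAA for C/EBP, which contains the stricter form TTGCGCAA that was also searched, CACGTG for the E-box and CCAAT for NF-Y. For the zinc fingers of EVI1 itself they were ACAAGATAA, then AGATAAGAT, which overlaps the first motif named, and GAAGATGAG. The Evi1 window held CGGAAG at -43, TGACAG at -86 and CCAAT at -207, all on the strand opposite to the one printed. CGGAAG occurs in 16.9% of all start windows, TGACAG in 19.2% and CCAAT in 37.4%. The Prdm16 window held CCAAT at -98 on the printed strand, and the Mds1 window held none of the motifs. GC content was 52.0% in the Mds1 window, 49.7% in the Evi1 window and 61.0% in the Prdm16 window, beside a median of 52.7% over the table. The windows held 19, 9 and 24 CpG in the same order, beside a median of 7.

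The starts differed in how many libraries were open there. At the long start, the nearest region was Mecom region 43 (chr3:30508056-30508960). Its near edge lies 799 bp downstream of the start and its strongest summit 1287 bp downstream, inside the gene. It was held by all 8 libraries, with a percentile of 86.1 and 82.8 in 4S-A 1 and 4S-A 2, 88.3, 81.6 and 76.6 in KO 1 through KO 3, and 73.0, 85.8 and 83.6 in FL 1 to FL 3. The percentile is the rank of a peak's −log10 q within its own library's list, so that 100 would be the strongest peak of that list. By −log10 q all 8 libraries thus placed it in the upper part of their list, and the groups overlap. Ranked by fold enrichment over the local background, it was at a percentile of 40.16 in FL 3 and of 64.89 to 82.45 in the other libraries. No region overlapped the 300-base Mds1 window itself.

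The short start lay inside Mecom region 5 (chr3:30012764-30013437), which covers 283 of the 300 bases of the Evi1 window and has its strongest summit 63 bp downstream of the start. Neither 4S-A library had a peak there. Of the KO libraries, KO 1 and KO 2 had one, at percentiles of 1.54 and 25.7, and KO 3 had none. Of the FL libraries, FL 2 and FL 3 had one, at 2.62 and 19.1, and FL 1 had none. Each of these 4 peaks ranked in the lower part of its list, with a fold enrichment over the local background, as the authors deposited it, between 3.17 and 5.13. Of the 32583 start windows on the chromosomes used, 34.4% had a peak in all 8 libraries, 52.3% in none, and 4 (0.0123%) in exactly the libraries of the Evi1 window. A second region within 1 kb of the short start, Mecom region 4 (chr3:30012266-30012516), was held by FL 3 alone, at a percentile of 4.67.

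At Prdm16, the nearest region to the start was Prdm16 region 11 (chr4:154635331-154636140). Its near edge lies 733 bp downstream and its strongest summit 1101 bp downstream. It overlaps 5930403L14Rik, annotated as a long non-coding RNA gene within the Prdm16 span. Its percentile was 18.9 and 17.7 in 4S-A 1 and 4S-A 2, 52.1, 35.1 and 17.5 in KO 1 through KO 3, and 28.2 and 35.3 in FL 2 and FL 3, while FL 1 had no peak. Like the long start of Mecom, the Prdm16 window overlapped no region, and the nearest one lay within 1 kb downstream. Unlike that region it was missing from 1 library, and by −log10 q it ranked below Mecom region 43 in each of the other 7. By fold percentile it ranked above Mecom region 43 in FL 3 alone, at 48.77 against 40.16.

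**Figure D1:**
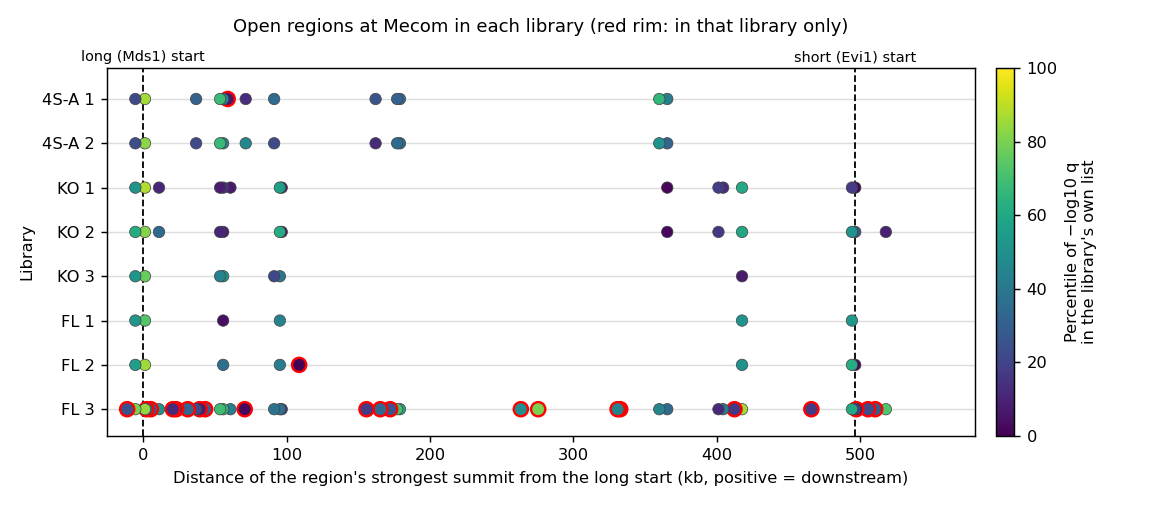
Peaks at Mecom in each library, 1 row per library, against the distance in kb of a region's strongest summit from the long (Mds1) start, positive downstream, with both starts as dashed lines. Each point is a region the library holds, coloured by its percentile and rimmed in red where no other library holds it; the FL 3 row holds 42 of 45 regions, and region 43 beside the long start is filled in all 8 rows.

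FL 3 held nearly every region of Mecom. The numbers were 13 and 12 of 45 in 4S-A 1 and 4S-A 2, 14, 13 and 7 in KO 1, KO 2 and KO 3, and 6, 8 and 42 in FL 1, FL 2 and FL 3. At its average share of all regions a library would hold 33 and 29.7 regions of Mecom in 4S-A 1 and 4S-A 2, 17.2, 22.5 and 29.4 in KO 1 through KO 3, and 15.5, 16.7 and 29.1 in FL 1 to FL 3. The 45 regions include the 21 by which the gene was chosen, which the other 7 libraries lack by definition, so these shares are not read further. Of the other 24 regions, 4S-A 1 and 4S-A 2 held 13 and 12, where their share of all regions that are not FL 3-only would give 18.2 and 16.4. KO 1, KO 2 and KO 3 held 14, 13 and 7 of the 24, where that share would give 9.5, 12.4 and 16.2. FL 1, FL 2 and FL 3 held 6, 8 and 21, where it would give 8.6, 9.2 and 15.2. KO 1 lay above this share, both 4S-A libraries, KO 3 and FL 1 below it, and KO 2 and FL 2 near it. FL 3 was above it too, but the gene was chosen for peaks of FL 3, so nothing is read from its count. Cut to the 51510 strongest peaks of each list, the libraries held 3 and 4 regions in 4S-A 1 and 4S-A 2, 9, 6 and 3 in KO 1 through KO 3, and 6, 6 and 15 in FL 1 to FL 3.

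At Prdm16 the libraries did not separate in this way. Of its 11 regions, 2 and 2 were held by 4S-A 1 and 4S-A 2, 5, 2 and 7 by KO 1 through KO 3, and 2, 2 and 4 by FL 1 to FL 3. At its average share of all regions a library would hold 8.07 and 7.25 of them in 4S-A 1 and 4S-A 2. That number was 4.21, 5.49 and 7.19 in KO 1 through KO 3, and 3.79, 4.07 and 7.12 in FL 1 to FL 3. The highest count was that of KO 3, which was near its average share. FL 3 held no region that the others lacked, beside 3.31% of all regions, and 11 regions are few for such a share.

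**Figure D2:**
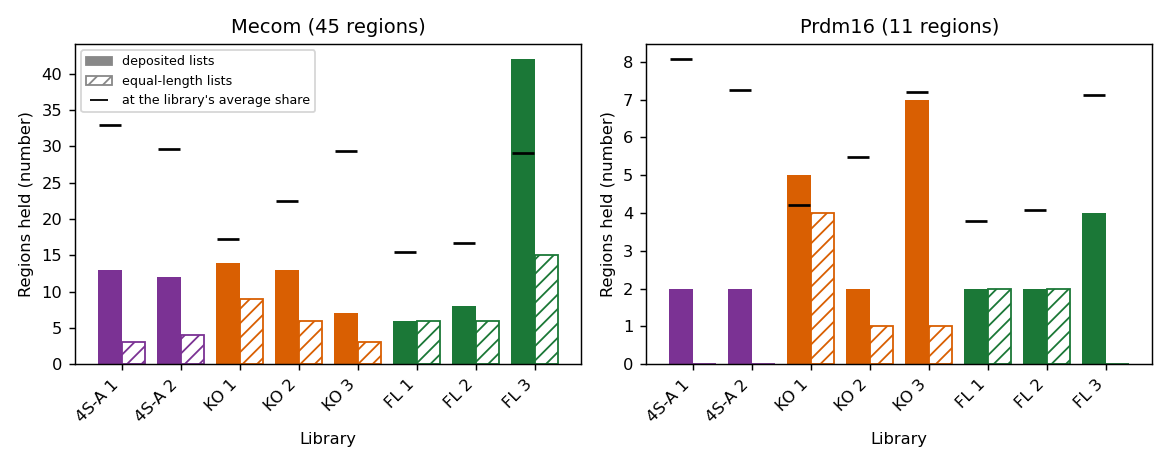
Number of regions held by each library at Mecom and at Prdm16 in the deposited lists (filled bars) and in lists cut to equal length (hatched bars), with the number at the library's average share (black lines), libraries from 4S-A on the left to FL on the right. At Mecom, FL 3 stands at 42 and the other 7 libraries between 6 and 14; at Prdm16 the libraries range from 2 to 7.

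Of the 45 Mecom regions, 21 (46.7%) were held by FL 3 alone, while 3.31% of all regions were; because Mecom was chosen for this count, nothing is read from the contrast. None of the 11 Prdm16 regions was held by FL 3 alone. The 21 made up 50.0% of the 42 regions that FL 3 holds at Mecom, beside 5.12% of all regions that FL 3 holds. In lists of equal length, 6 of 18 Mecom regions (33.3%) were held by FL 3 alone, beside 1.65% of all regions. Private regions of the other 7 libraries at Mecom were 1 of 4S-A 1 (region 31), beside 5.57% of all regions, and 1 of FL 2 (region 24), beside 3.01%.

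Among 18442 protein-coding genes with a region, Mecom ranked first by the number of FL 3-only regions. Phip and Sox5 followed with 7 each, then Cdh23, Dgki, Nipbl and Skap2 with 6, and Adcyap1r1, Arid1b and Arid3b with 5. Phip encodes a chromatin reader with bromodomains, Nipbl the loader of cohesin, and Sox5 a transcription factor. The highest count of private regions at any gene was 9 for 4S-A 1 (Arhgap26), 6 for 4S-A 2 (Lrmda), 5 for KO 1 (Nav2), 6 for KO 2 (Arhgap26), 9 for KO 3 (Asap1), 4 for FL 1 (Alk) and 9 for FL 2 (Camta1). The highest FL 3-only count among 293 other genes with a span within 1.5 times that of Mecom was 6, and their median was 0, given as a description since this count chose Mecom.

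The FL 3-only regions at Mecom lay from downstream of the short start to past the long start. They were not evenly spread, with 7 in the first 50 kb downstream of the long start, where 10 regions of any library lay. From 200 to 250 kb downstream there were 0, and no library held a region there. The FL 3-only regions ran from chr3:29999125 (region 2) to chr3:30521060 (region 45), a stretch of 521.9 kb. Beyond this stretch the next FL 3-only region lay 2199.0 kb away on the lower side and 686.3 kb away on the higher side. In the surrounding 1 Mb on each side, outside the gene and its 20 kb margins, 2 of 119 regions (1.68%) were held by FL 3 alone. Around Prdm16, the same count was 6 of 161 (3.73%). Of 14 neighbouring genes within 1 Mb of Mecom, 1 had an FL 3-only region (Slc7a14, 1 region), against 8 of 33 neighbours of Prdm16, none with more than 2.

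The span of Mecom alone gave 20 FL 3-only regions, and margins of 100 kb gave 21. The outermost region inside on the higher side was region 45, 11123 bp above the gene's span. The first region outside lay 82757 bp above the span, and 6 libraries held it. On the lower side, region 1 lay 40475 bp inside the span, and the first region outside lay 833972 bp below it, held by 4S-A 1, 4S-A 2 and KO 3.

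**Figure D3:**
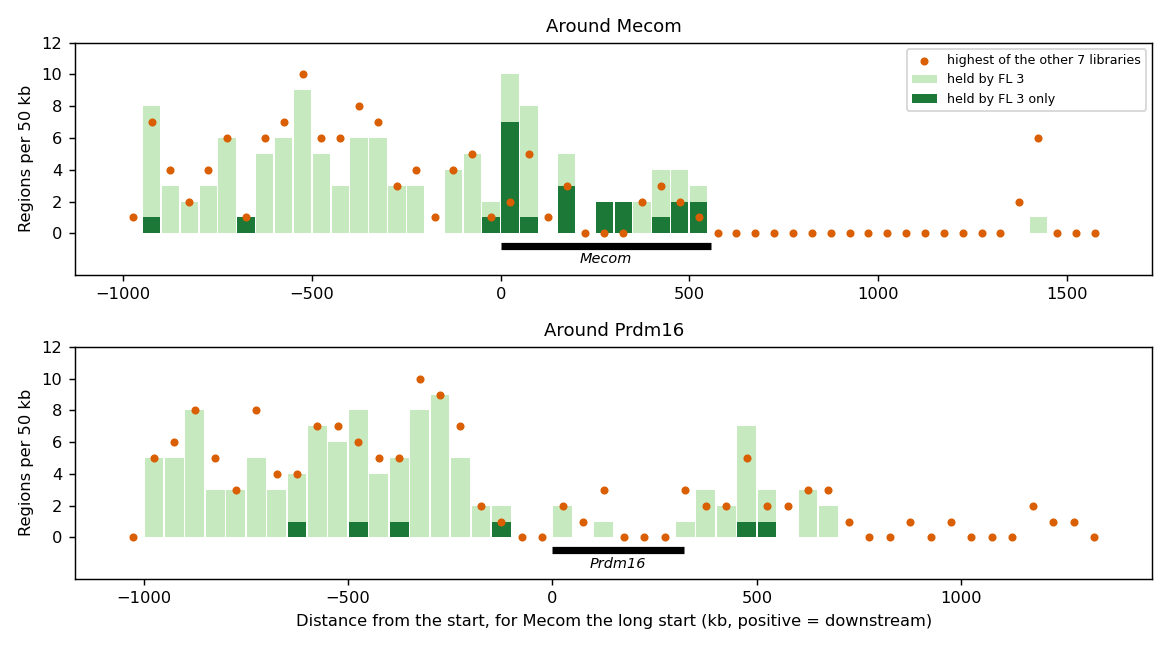
Regions per bin of 50 kb, up to 1 Mb on each side of Mecom (top) and of Prdm16 (bottom), against the distance in kb from the start: held by FL 3 (light bars), held by FL 3 alone (dark bars) and the highest count of the other 7 libraries (points). Around Mecom the dark bars lie over the gene, with 2 such regions outside it and its margins; around Prdm16 there are 6 outside and none at the gene.

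Most FL 3-only regions at Mecom were of low to middle rank in the FL 3 list. Their percentiles ran from 2.63 to 79.9 with a median of 24.6 (n = 21 regions), and their median width was 332 bp. The other 21 regions that FL 3 holds at Mecom had percentiles from 11.1 to 86.3 with a median of 51.4, and a median width of 594 bp. All 4583 FL 3-only regions of the genome had a median percentile of 9.84 and a median width of 236 bp. The strongest at Mecom was region 16 (chr3:30233968-30234441), 221.0 kb upstream of the short start inside the gene, at a percentile of 79.9 and a fold enrichment of 15.9. By percentile it ranked 3 among the 4583. Region 17 (chr3:30246218-30247494), 1277 bp wide, came next at Mecom with a percentile of 49.3.

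The libraries that held the regions of Mecom also differed between stretches of the gene. Around the short start and up to 95.3 kb upstream of it (regions 1 to 11), the numbers held were 0 and 0 in 4S-A 1 and 4S-A 2, 5, 5 and 1 in KO 1 through KO 3, and 2, 3 and 11 in FL 1 to FL 3. Neither 4S-A library thus held a peak in this stretch, where 5 regions were FL 3-only. In the middle of the gene (regions 12 to 24, 131.0 to 387.8 kb upstream of the short start), the numbers were 5 and 5 in 4S-A 1 and 4S-A 2, 1, 1 and 0 in KO 1 through KO 3, and 0, 1 and 11 in FL 1 to FL 3. Here 4S-A came next to FL 3, and 7 regions were FL 3-only. In the last stretch, toward the long start and beyond it (regions 25 to 45), the numbers were 8 and 7 in 4S-A 1 and 4S-A 2, 8, 7 and 6 in KO 1 through KO 3, and 4, 4 and 20 in FL 1 to FL 3, with 9 FL 3-only. The stretches were drawn after the values were seen and are a description. Their counts include the FL 3-only regions, which the other 7 libraries lack by definition. They have no share over all regions beside them, so nothing is read from the contrast between stretches.

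Of the regions that several libraries held near the short start, region 6 (chr3:30015261-30015597, 2210 bp upstream of that start) was stronger than the start itself. Neither 4S-A library nor KO 3 had a peak there, KO 1 and KO 2 had percentiles of 17.3 and 51.7, and FL 1, FL 2 and FL 3 had 53.3, 61.4 and 60.5. All 3 FL libraries were thus open at it, and of the Tie2-Cre set FL 3 alone.

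Region 8 (chr3:30091727-30092725), 78870 bp upstream of the short start, was held by all 6 KO and FL libraries and by neither 4S-A library. Its percentile was 60.3, 59.5 and 7.04 in KO 1 through KO 3 and 51.9, 51.9 and 86.3 in FL 1 to FL 3. Region 26 (chr3:30414161-30414545), 95368 bp downstream of the long start, showed the same set of libraries, at 55.6, 61.4 and 39.6 in KO 1 through KO 3 and 44, 42.1 and 37.1 in FL 1 to FL 3. Of the 5 Mecom regions that all 6 of these libraries hold, 2 were missing from both 4S-A libraries, beside 1.36% of all such regions in the genome. FL 3 and KO 3, which belong to the Tie2-Cre set as both 4S-A libraries do, held both regions. The count covers 5 regions and has no test.

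Within the Tie2-Cre set, 4S-A and KO 3 lacked most of what FL 3 held at Mecom. Both 4S-A libraries lacked 31 of the 42 regions of FL 3 (73.8%), beside 11.7% of all regions that FL 3 holds, and KO 3 lacked 35 of them (83.3%), beside 14.4%. Both counts include the 21 regions that chose the gene, so nothing is read from them. In the other direction, 1 of 12 Mecom regions held by both 4S-A libraries was missing from FL 3 (region 22), beside 16.4%, and none of the 7 regions of KO 3 was, beside 15.3%. The mean number of regions was 12.5 ± 0.71 in 4S-A (SD, n = 2), against 42 in FL 3, a difference of -29.5 with no test at 2 libraries against 1.

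The 5 regions shared by both 4S-A libraries and FL 3 alone (13, 18, 19, 28 and 36) lay between 136.6 and 459.6 kb upstream of the short start. Region 13 (chr3:30149372-30150197) had percentiles of 66.0 and 51.8 in 4S-A 1 and 4S-A 2 and 45.5 in FL 3. Region 19 (chr3:30332347-30332940) had 30.5 and 34.5 in 4S-A 1 and 4S-A 2 and 70.3 in FL 3. No KO library had a peak at these 5 regions, and neither did FL 1 or FL 2. The share of all regions with this pattern was not worked out, so nothing is read from the count.

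In the Mx1-Cre set the KO libraries held more Mecom regions than their controls. KO 1 and KO 2 held 14 and 13, against 6 and 8 in FL 1 and FL 2. Of the 12 regions that KO 1 and KO 2 both held, 5 (regions 11, 12, 25, 33 and 40) were missing from FL 1 and FL 2, beside 13.5% of all regions that both KO libraries hold. The reverse count was 0 of 6, beside 2.07%. The KO lists of this set are also longer than the FL lists, and the part of list length in this difference was not tested. At equal list length the numbers were 9 and 6 in KO 1 and KO 2 and 6 and 6 in FL 1 and FL 2.

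All 5 regions were also held by FL 3. Region 33 (chr3:30455918-30456332), 53678 bp downstream of the long start, had percentiles of 67.9 and 67.4 in 4S-A 1 and 4S-A 2 and of 7.88, 10.8 and 44.5 in KO 1 through KO 3, and among the FL libraries FL 3 alone had a peak, at 69.5. Region 40 (chr3:30498540-30498928), 11082 bp downstream of the long start, had 10.6 and 33.9 in KO 1 and KO 2 and 51.4 in FL 3. In KO 1 and KO 2 both regions ranked below the middle of the list.

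Over all 3 libraries of each group, KO held 11.33 ± 3.79 Mecom regions against 18.67 ± 20.23 in FL (SD, n = 3 each), a difference of -7.33 that lay within the spread of the FL group. The 2 sets went opposite ways, with 13.5 in KO against 7.0 in FL in the Mx1-Cre set and 7 in KO 3 against 42 in FL 3 in the Tie2-Cre set. Without FL 3 the difference was 4.33. None of 6 Mecom regions held by all 3 KO libraries was missing from every FL library, beside 0.754% of all such regions. Likewise none of 6 regions held by all 3 FL libraries was missing from every KO library, beside 0.214%.

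**Figure D4:**
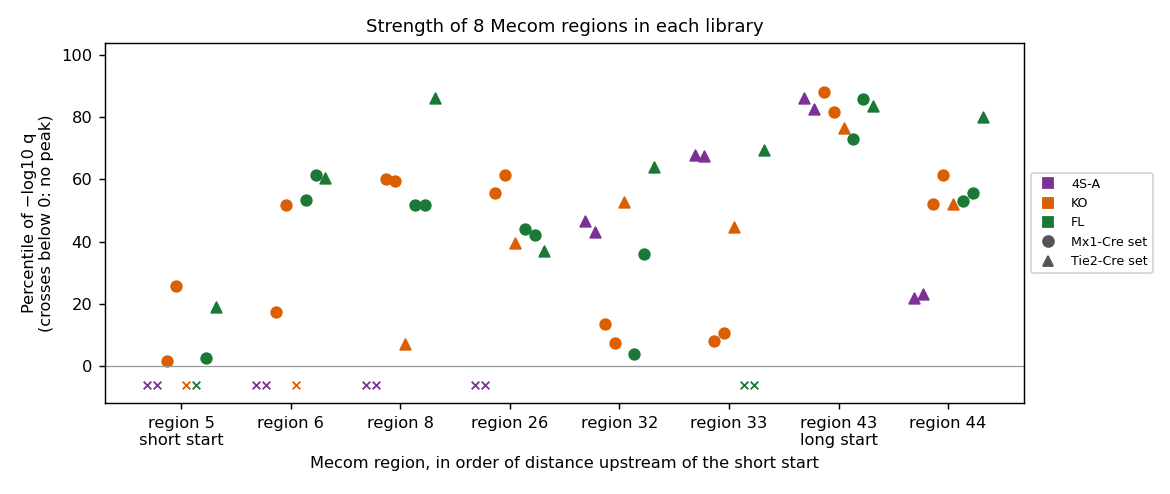
Percentile of −log10 q within each library's list at 8 Mecom regions in each library, ordered from the short start to beyond the long one, with colours for 4S-A, KO and FL, shapes for the Cre set, and a cross below 0 for no peak. At region 44 both 4S-A libraries lie below the other 6, and at regions 8 and 26 they have no peak.

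Regions held by all 8 libraries were 3 at Mecom (32, 43 and 44) and 0 at Prdm16, beside 24.1% of all regions. Regions 43 and 44 are not among the FL 3-only regions that chose Mecom. The choice by FL 3 may still bear on the strength of FL 3 there. Region 32 joins separate peaks of the other libraries only through the wide peak of FL 3. Region 44 (chr3:30514439-30515459), which lies 5427 bp upstream of the long start, outside the gene's span, had its lowest percentiles in 4S-A. Its percentile was 21.9 and 23.3 in 4S-A 1 and 4S-A 2, 52.0, 61.3 and 52.2 in KO 1 through KO 3, and 53.1, 55.8 and 80.0 in FL 1 to FL 3. Both 4S-A libraries were below all others, as was the case at 4.37% of the 33321 regions held by all 8. The mean was 22.6 ± 0.95 in 4S-A (SD, n = 2) and 59.08 ± 10.83 in the other 6 (SD, n = 6), a difference of -36.49. By a two-sided exact permutation test the p was 0.0357, the smallest that 2 against 6 allows, and 0.508 after Benjamini-Hochberg adjustment over the 33321 regions. Over those regions 2077 had an unadjusted p under 0.05 by this test and none after adjustment, so the difference at region 44 does not pass. Without FL 3 the difference was -32.3. Both 4S-A libraries belong to the Tie2-Cre set, while KO 1, KO 2, FL 1 and FL 2 belong to the Mx1-Cre set. The test of 4S-A against the other 6, at this region and at regions 32 and 43, thus does not separate set from genotype.

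Region 32 (chr3:30453823-30454901), 55800 bp downstream of the long start, had percentiles of 46.6 and 43.1 in 4S-A 1 and 4S-A 2, 13.6, 7.50 and 52.7 in KO 1 through KO 3, and 3.70, 36.1 and 64.2 in FL 1 to FL 3. The groups overlapped, and the 4 libraries of the Tie2-Cre set were above the other 4, but the peaks ranked were not all at the same site. The peaks of KO 1, KO 2 and FL 2 had summits between 30454614 and 30454633. The strongest peaks of the other libraries had summits between 30453943 and 30453999. Only the FL 3 peak, 1079 bp wide, joins these sites, so the differences at this region compare different sites. By fold percentile the split between the sets did not hold, with FL 3 at 30.01 and FL 2 at 37.94. The 4S-A mean was 15.19 above that of the other 6 (exact permutation p = 0.429, adjusted 0.606). At region 43, beside the long start, 4S-A was 2.94 above (exact permutation p = 0.607, adjusted 0.737). Neither difference passed the test.

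Between KO and FL, the difference was -10.05 at region 32 (exact permutation p = 0.7), 1.35 at region 43 (p = 0.8 by the same exact test) and -7.81 at region 44 (exact p = 0.5), with an adjusted p of 1.0 for each. The smallest p that 3 against 3 allows is 0.1, so no region could pass. With percentiles of fold enrichment the difference was 5.3 at region 32, 13.45 at region 43 and -0.36 at region 44, and in lists of equal length it was -3.43 at region 43 and -21.61 at region 44. None of the 3 regions had every KO library above or below every FL library, beside 3.82% and 0.939% of the 33321 regions.

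**Figure D5:**
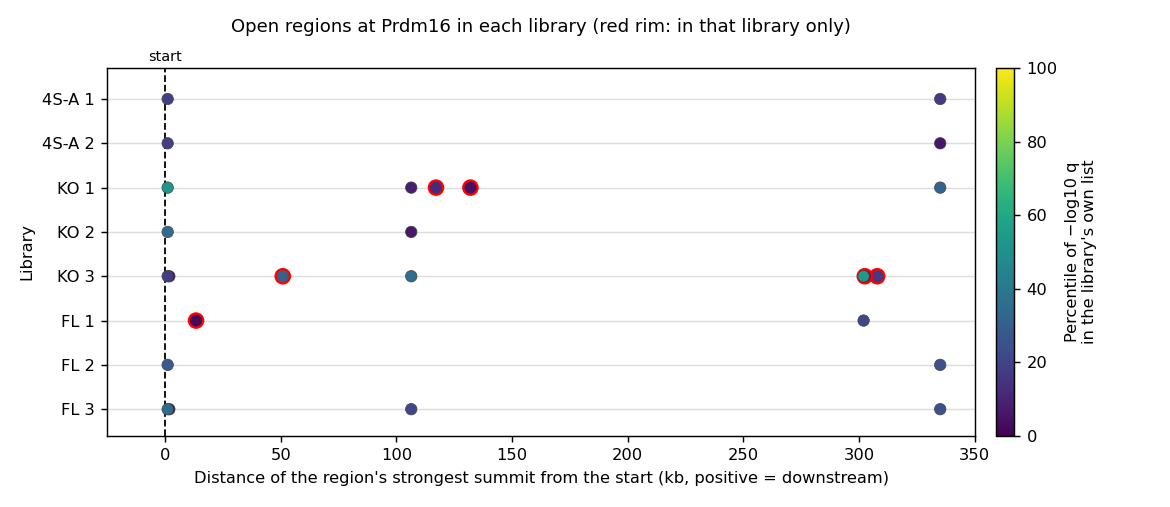
Peaks at Prdm16 in each library, 1 row per library, against the distance in kb of the strongest summit from the Prdm16 start, positive downstream, coloured by percentile and rimmed in red where no other library holds the region. FL 3 has no red rim; the KO 3 row holds 7 regions, 3 of them rimmed, and the KO 1 row holds 5, 2 of them rimmed.

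The private regions of Prdm16 belonged to KO libraries and to FL 1. KO 3 alone held regions 2, 3 and 8 (27.3% of the 11), beside 3.56% of all regions held by KO 3 alone. KO 1 alone held regions 5 and 6 (18.2%), beside 1.24%, and FL 1 alone held region 9 (9.09%), beside 1.64%. Neither 4S-A 2 nor KO 2 alone held a region of Mecom or Prdm16, beside 2.54% and 2.67% of all regions. With 11 regions these shares rest on 1 to 3 regions each. Of the 7 regions of KO 3, 4 were missing from FL 3, beside 15.3% of the regions that KO 3 holds. Of the 4 regions of FL 3, 1 was missing from KO 3 (region 1), beside 14.4%.

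The strongest peak at Prdm16 was that of KO 3 at region 4 (chr4:154334738-154335277), 301940 bp downstream of the start near the 3′ end of the gene, at a percentile of 54.3, while FL 1 had 22.0 there. Region 7 (chr4:154530016-154530681), 106390 bp downstream of the start, was held by every KO library, at 8.54, 6.12 and 35.8 in KO 1 through KO 3, and by FL 3 at 21.1. Region 1 (chr4:154301503-154301914), 14308 bp beyond the 3′ end of the span, had 16.5 and 5.60 in 4S-A 1 and 4S-A 2, 32.1 in KO 1, and 25.1 and 24.6 in FL 2 and FL 3. Regions 1 and 11 were the 2 that 4S-A held, and neither was missing from FL 3. KO averaged 4.67 ± 2.52 regions against 2.67 ± 1.15 in FL (SD, n = 3 each), a difference of 2.0 within the spread, and 4S-A averaged 2.0 (n = 2).

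The 11 regions of Prdm16 were fewer than the median for genes of its length. Of 620 other genes with a span within 1.5 times that of Prdm16, 214 held fewer than 11 regions, and their median was 17. Genes of a length like that of Mecom had a median of 16 regions, against 45 at Mecom, a number that includes the 21 of FL 3.

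By the pattern over the 8 libraries, the genes most like Mecom were Dnajb13 (Pearson r = 0.95), Ankfy1 (0.94), Nacc2 (0.94), Ksr2 (0.94) and Ntn1 (0.93), chosen among 6616 genes with at least 10 regions. The measure is the share of a gene's regions that each library holds minus the library's share of all regions. Those most like Prdm16 were Tmem91 (0.96), Dpf2 (0.96), Plekhm3 (0.95), Crtc3 (0.95) and Supt5 (0.95). Between Mecom and Prdm16 r was 0.2 by this measure. With 8 points that share list length, these values describe likeness and carry no p. The pattern of Mecom includes the FL 3-only regions that chose the gene, so its r with Prdm16 and with every other gene rests on them too. The r also leaves out the size of a difference: FL 3 held 11 of 11 regions of Dnajb13 but 13 of 21 of Ksr2.

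In the rest of the PRDM family, to which both genes belong, no gene held more than 1 FL 3-only region. The 12 other members with a region together held 126 regions, of which 4 (3.17%) were FL 3-only, 1 each at Prdm1, Prdm6, Prdm11 and Prdm13. Prdm1 encodes BLIMP-1, a regulator of plasma cell formation. All protein-coding genes together had 3.01%. A list of 24 blood genes tied to EVI1 as partners, targets or fellow insertion sites held 415 regions, 9 of them FL 3-only (2.17%). They lay at Zbtb16 (3), Hmga2 (2), Meis1 (2), Gata2 (1) and Ctbp2 (1), the last 2 encoding a stem cell transcription factor and a corepressor that EVI1 binds. The medians over both lists and over all genes were 0 FL 3-only regions a gene.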

How the data were processed

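ATAC-seq peak lists of 8 libraries were used: 2 of 4S-A, 3 of KO and 3 of FL. Per the submitters' processing notes, the genome was mm10 and the tools were MACS2, featureCounts, Picard, Bowtie2 (2.2.9) and Trim Galore (0.4.4), with no role, order or setting given. The authors deposited 1 peak list per library, with a score per peak, a fold enrichment (a ratio over the local background), a −log10 p-value, a −log10 q-value and a summit. Peak names inside the lists of KO 1 and KO 2 carry the numbers 2 and 3, and the labels were followed. The deposited score was 10 times the −log10 q, truncated, apart from rounding in a few peaks. None of these values is scaled between libraries, so peaks were ranked within a list, as percentiles of −log10 q, and fold enrichment is the authors' own value for the peak. Read depth was not given in the sources used here, and list length limits which weak peaks can be seen.

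Peaks on the 19 autosomes and X were merged over the libraries where they shared at least 1 bp. Gene spans came from a RefSeq table of GRCm38.p6 (21631 protein-coding genes), and start sites and sequences from the RefSeq start windows of the same build. A region counts for a gene when a summit lies within 20 kb of its span. Differences at regions held by all 8 libraries were tested by two-sided exact permutation with Benjamini-Hochberg adjustment, checked on simulated data. Work used Python 3.11.15, pandas 2.3.3, NumPy 2.4.6, SciPy 1.17.1 and matplotlib 3.10.9. p-values measure only the spread between these libraries, which may be technical. Genes named were Mecom, Prdm16, the 5 genes most like each, the 10 with most FL 3-only regions and from each list the 4 with most FL 3-only regions, ties included. The genes, lists and rules were chosen with earlier results of these data known. Alternatives were lists of equal length (51510 peaks), a −log10 q of at least 5, summits within 250 bp, the span alone or with 100 kb, fold percentiles, leaving out each replicate, each Cre set and a replicate block. A protein comparison was not analysed here, nor were sequences of the regions.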

Additional observations from a re-analysis of the deposited data

Results flagged for a closer look

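The difference between KO and FL in the number of Mecom regions had opposite signs in the 2 sets. It was 6.5 in the Mx1-Cre set (KO 1 held 14 and KO 2 held 13, FL 1 held 6 and FL 2 held 8), and -35.0 in the Tie2-Cre set (7 in KO 3, against 42 in FL 3). Every library of the sets moved that way, but the Tie2-Cre set has 1 library a group, and the difference between the sets was not tested. The percentile at Mecom region 8 likewise differed by 7.99 between KO and FL in the Mx1-Cre set and by -79.25 in the Tie2-Cre set, also not tested.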

How the results depend on the processing

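Of the recomputed values, 166 kept their direction and side of the threshold or, where there was no test, moved by less than the spread between libraries (for counts of genes or regions, 1.5 times), though some of them changed in size. The 44 others are given here. In lists of equal length, Mecom regions held were 3 and 4 in 4S-A 1 and 4S-A 2, 9, 6 and 3 in KO 1 to KO 3, and 15 in FL 3, with 6 of them FL 3-only, and 4S-A minus FL 3 was -11.5. In the same lists Prdm16 regions were 0 in both 4S-A libraries, 1 in KO 2, 1 in KO 3 and 0 in FL 3, and 4S-A minus FL 3 was 0.0. With a −log10 q of at least 5, Mecom regions were 9 in KO 1, Prdm16 regions were 1 in 4S-A 2, 3 in KO 1, 1 in KO 2 and 1 in FL 1, and 4S-A minus FL 3 was -27.5 at Mecom and -1.5 at Prdm16. With the span alone, Prdm16 regions were 1 in 4S-A 1, 1 in 4S-A 2 and 1 in FL 2. With 100 kb margins they were 4 in both 4S-A libraries, KO 2, FL 1 and FL 2 and 7 in FL 3, and Mecom regions were 12 in KO 3. A cut list or a narrower window can only lose peaks, and a wider window can only gain them. The cause of the size of each change was not tested. FL 3-only regions at Mecom numbered 20 to 21 with other margins, a stricter q or summits within 250 bp, 21 to 23 with 1 library left out, and at Prdm16 0 to 1, the 1 without KO 3.

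KO minus FL Mecom regions was 6.5 within the Mx1-Cre set and -35.0 within the Tie2-Cre set, and -13.67 to 4.33 with 1 library left out, the reversal being that without FL 3. At Prdm16 it was 0.83 to 3.33. 4S-A minus FL 3 was -30.0 to -29.0 and -2.0 without either 4S-A library. KO minus FL percentiles at region 32 reversed with fold percentiles (5.3) and ran from -25.53 to 4.7 with 1 library left out, 4.7 being without FL 3. At region 43 they reversed in lists of equal length (-3.43), without KO 1 (-1.72) and without FL 1 (-2.56), ran up to 4.14 with 1 library left out, and were 13.45 with fold percentiles. At region 44 they were -21.61 in lists of equal length (exact permutation p = 0.1, the smallest 3 against 3 allows) and -0.36 with fold percentiles, and ran from -12.73 to 0.71 with 1 library left out, 0.71 being without FL 3. KO minus FL Mecom regions was -3.0 and Prdm16 regions 0.67 in lists of equal length, and Prdm16 regions 1.0 with 100 kb margins. The cause was not tested. The alternatives for 4S-A percentiles were chosen after seeing the data. With fold percentiles the 4S-A difference was 24.86, 12.88 and -25.43 at regions 32, 43 and 44, and in lists of equal length it was -4.53 at region 43, with no value at the other regions. At regions 32 and 43 it was 10.0 to 22.1 and 1.24 to 4.59 with 1 library left out. At region 44 it ran from -37.9 to -32.3, and without 4S-A 1 it was -35.81 and without 4S-A 2 -37.16, each at an exact permutation p of 0.1429, the smallest 1 against 6 allows. Prdm16 has no region held by all 8 libraries, so its percentile alternatives gave no value.

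KO and FL share replicate numbers, but same-numbered libraries had correlations of deviations of 0.172, 0.086 and 0.327, so the numbers were not taken to pair them. Pairs with other numbers had 0.185 and 0.064 within the Mx1-Cre set and -0.28 to -0.118 across the sets. The value of 0.327 is that of KO 3 and FL 3, the only KO and FL libraries of the Tie2-Cre set. With a replicate block, KO minus FL was -7.33 at Mecom and 2.0 at Prdm16, as without it, since paired differences keep the mean, and no call changed.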
